A study of Rattus norvegicus with 6 samples.

Results

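The genes described here encode the enzymes that burn pyruvate and fatty acids in mitochondria: the pyruvate dehydrogenase complex, the tricarboxylic acid (TCA) cycle, fatty acid activation and carnitine transfer, and beta-oxidation, with a few cytosolic partners and the regulator Ppara. They were taken from a list of 41 gene symbols, and every probe set annotated with exactly 1 of those symbols was used. Probe sets were found for 39 of the 41 genes, 38 through the symbol itself and Pcx through its synonym Pc, which gave 56 of the 31042 probe sets of the table that are not controls. The expression of Dlat and Fh was not analysed here, but their promoter regions are among the 37 searched below.

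The study measured gene expression on Affymetrix arrays in cultured smooth muscle cells from rat aorta (passages 3 to 5), comparing 3 static control cultures with 3 that a parallel-plate chamber had exposed to fluid shear stress of 14 dyn/cm2 over 24 h. Cells of both groups had been grown with 10% fetal calf serum and then held for 24 h in 0.1% bovine serum albumin, and no genetic change or drug is named for either group. Each sheared culture has the same pairing number as 1 static culture, and the submitters treat these as pairs. Nothing says whether partners share an animal, a passage or a day, so p-values reflect only how these 6 samples scatter, possibly for technical reasons, and anything else that differs between flow chamber and static dish cannot be told apart from shear. The comparison asks which transcripts differ under shear.

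In the TCA cycle, acetyl groups from pyruvate or fatty acids are condensed with oxaloacetate by citrate synthase and oxidised in a ring of reactions that yields NADH, FADH2 and GTP or ATP. Long-chain fatty acids are first joined to coenzyme A by acyl-CoA synthetases, carried into mitochondria as carnitine esters by the carnitine palmitoyltransferases, and then shortened step by step by acyl-CoA dehydrogenases, hydratases, hydroxyacyl-CoA dehydrogenases and thiolases. Electrons taken by the acyl-CoA dehydrogenases pass through the electron transfer flavoprotein to the respiratory chain. Vascular smooth muscle makes energy both by glycolysis and by mitochondrial oxidation of such fuels.

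Signals are the deposited MAS5 intensities, a linear brightness per probe set with no set unit. A change is the sheared minus the static value of log2(signal + 16), which understates the change of dim genes, and adjusted p-values come from limma with the pair as a block, over all 21729 probe sets tested (threshold 0.05). For genes with more than 1 probe set, the brightest stands for the gene unless others are named. Ppara, with a signal of 0.70 to 1.90 on the 6 arrays, lay in the dimmest 30% of probe sets, which were left out, so 38 genes were tested. Because each probe set binds its target differently, signals of different genes are not compared.

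Promoter sequence is shown for the genes that changed most and for a pair of genes that share a promoter, to place the measurements on the genome. The sequences are from RefSeq, build GRCr8, which held entries for 37 of the 41 genes; each line gives the 250 bases before the annotated start, 5′ to 3′ on the gene's own strand. Cpt1a and Acsl1 had the largest increases, and Idh2 and Ogdh the largest decreases. In these 4 lines capitals mark CCAAT, a motif bound by the factor NF-Y, on either strand. In the Hadha line capitals mark the bases that also lie in the 250 bases before the start of Hadhb on the other strand.
Cpt1a (chr1:209995910-209996159, plus strand): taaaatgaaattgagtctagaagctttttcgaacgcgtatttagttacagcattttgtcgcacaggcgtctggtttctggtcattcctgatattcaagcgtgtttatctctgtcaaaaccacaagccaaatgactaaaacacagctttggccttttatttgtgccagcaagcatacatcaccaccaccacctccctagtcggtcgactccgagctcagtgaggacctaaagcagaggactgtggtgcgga
Acsl1 (chr16:52532393-52532642, minus strand): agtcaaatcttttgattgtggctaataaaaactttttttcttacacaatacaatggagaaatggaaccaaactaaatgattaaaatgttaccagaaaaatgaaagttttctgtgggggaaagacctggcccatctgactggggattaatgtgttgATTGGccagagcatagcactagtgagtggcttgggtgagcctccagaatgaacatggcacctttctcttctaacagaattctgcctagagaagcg
Idh2 (chr1:143467249-143467498, minus strand): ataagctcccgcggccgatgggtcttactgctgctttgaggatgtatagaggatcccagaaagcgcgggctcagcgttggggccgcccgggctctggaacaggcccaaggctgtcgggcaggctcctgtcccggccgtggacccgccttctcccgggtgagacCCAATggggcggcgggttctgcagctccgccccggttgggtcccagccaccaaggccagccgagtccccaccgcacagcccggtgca
Ogdh (chr14:85363781-85364030, plus strand): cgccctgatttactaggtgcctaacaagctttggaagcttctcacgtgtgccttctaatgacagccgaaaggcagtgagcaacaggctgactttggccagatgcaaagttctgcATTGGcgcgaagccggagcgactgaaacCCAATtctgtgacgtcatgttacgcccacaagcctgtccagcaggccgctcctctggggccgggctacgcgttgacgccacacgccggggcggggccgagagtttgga
Hadha (chr6:31907551-31907800, plus strand): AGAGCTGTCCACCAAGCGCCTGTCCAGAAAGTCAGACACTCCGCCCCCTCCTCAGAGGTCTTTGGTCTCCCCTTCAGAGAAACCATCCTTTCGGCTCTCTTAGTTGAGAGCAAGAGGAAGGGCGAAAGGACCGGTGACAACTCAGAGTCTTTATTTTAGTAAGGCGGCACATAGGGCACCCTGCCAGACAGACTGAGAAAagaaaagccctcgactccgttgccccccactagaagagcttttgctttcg
The Hadha and Hadhb starts face away from each other with 300 bases between them, so 200 bases belong to both regions. CCAAT was present 95 bases before the start of Acsl1, 87 before that of Idh2, and 136 and 108 before that of Ogdh, counted to the motif's first base, and was not found in the Cpt1a region. It occurred in 14 of the 37 member regions (37.8%) and in 34.0% of all 33469 promoters of the same length. AGGTCA, the hexamer bound by PPAR and ERR receptors, occurred in 4 of 37 (10.8%) against 14.1% of all, searched on both strands. The longer ERR motif TCAAGGTCA, which contains AGGTCA, and the PPAR direct repeat of AGGTCA with 1 base between were found in 0 of 37, against 0.388% and 0.0508% of all. CACGTG, the E-box, was in 2 of 37 (5.41%, against 5.59%), and the palindromic NRF1 motif in 1 of 37 (2.70%, against 0.762%). These matches describe the letters in the window only.

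Under shear most genes of this group had lower signals. The acyl-CoA synthetases Acsl1 and Acsl4, the carnitine palmitoyltransferase Cpt1a and the dehydrogenase Acadl had higher ones. Smaller increases were called for Dld (0.60) and Pcx (0.41), which act on pyruvate, and for Idh3b (0.30) and Sucla2 (0.30) of the TCA cycle. Of the 38 genes tested, 8 rose, 20 fell and 10 did not pass, so 73.7% changed. Of all genes tested 57.9% changed (27.8% rose and 30.1% fell). The members were chosen with earlier results of these data known. Calls were also more frequent among brighter probe sets, 64.7% with the dimmest 50% left out against 52.8% here. The comparisons with all genes, here and below, were not matched for brightness, so an excess is not read as particular to this pathway. As these are bulk samples, fewer cells with a transcript and less of it per cell cannot be told apart. The median change was -0.27, against -0.053 over the 11248 genes tested. In 29 of the 38 the 3 sheared and 3 static values did not overlap, against 64.4% of all genes. Groups without overlap, as named for single genes below, are therefore common in these data and not particular to those genes. Changes of at least 1 on the log2 scale were called for 9 of the 38, beside 16.6% of all genes. All 28 called genes moved the same way in all 3 pairs, as did 3 of the 10 that did not pass. A call made with the pair as a block favours such agreement, so it is no separate support. The groups differ in shape: 6 of 11 TCA cycle genes and 5 of 6 later beta-oxidation enzymes fell, whereas 3 of 5 genes of fatty acid activation and transfer rose. Among pyruvate dehydrogenase, the TCA cycle and fatty acid oxidation as a whole, medians were -0.079 over 3 genes, -0.28 over 11 and -0.36 over 18; these differences between groups were not tested.

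**Figure D1:**
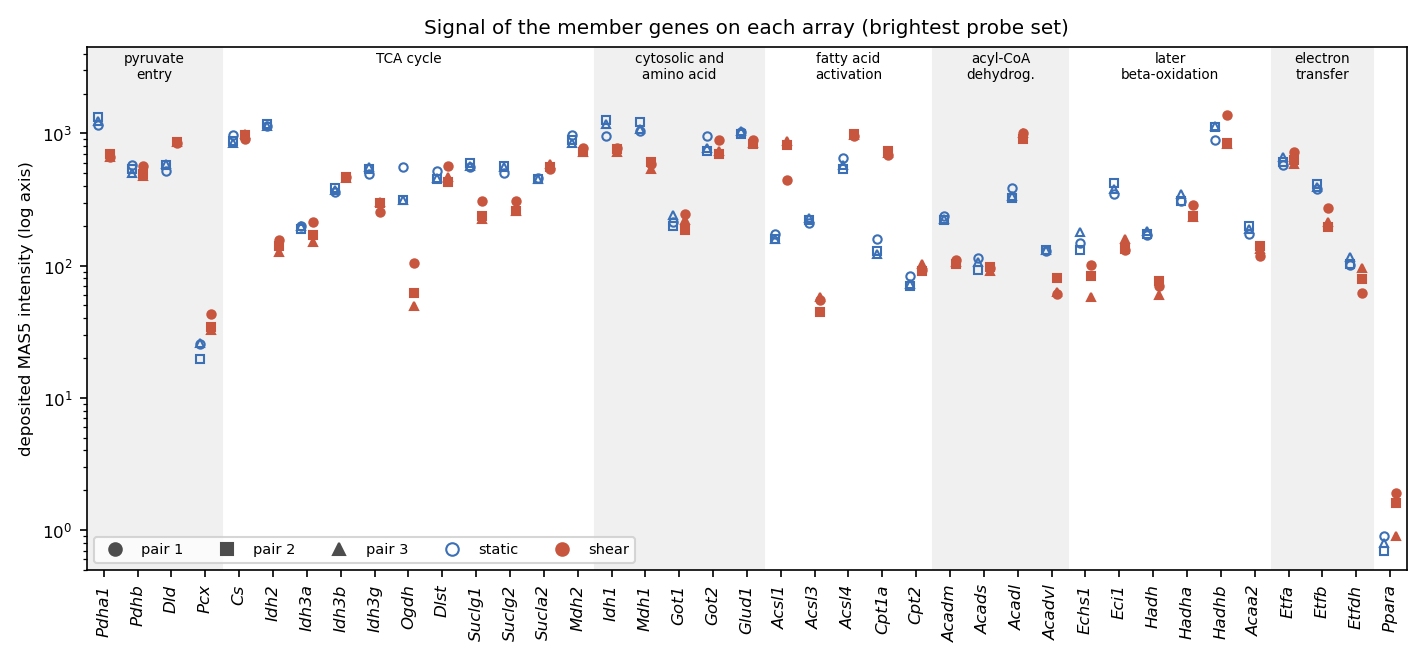
Deposited MAS5 intensity (log axis) of the 39 matched genes on each array, by role; open blue symbols are static and filled red symbols sheared cultures, and the symbol's shape gives the pair. Idh2, Ogdh and Acsl3 are lower and Cpt1a, Acsl1 and Acadl higher on all 3 sheared arrays; heights of different genes are not comparable.

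The strongest change in the whole group was that of Idh2, the mitochondrial NADP-dependent isocitrate dehydrogenase, which supplies NADPH inside mitochondria. Its signal was 1141.4, 1172.6 and 1131.9 on static arrays 1 to 3 and 154.9, 139.6 and 127.4 on sheared arrays 1 to 3. The groups lay far apart, with a mean of 1149 ± 21.3 (SD, n = 3) in static and 141 ± 13.8 (SD, n = 3) in sheared cells, an 8.17-fold lower signal. The change was -2.90 (95% interval -3.11 to -2.68, adjusted p = 1.5e-06). Ogdh, the first subunit of the 2-oxoglutarate dehydrogenase complex, gave 552.4, 314.2 and 314.6 in static and 105.4, 62.4 and 49.4 in sheared cells. Pair 1 was brighter in both groups, yet the change was alike in all pairs, -2.23, -2.07 and -2.34, with an estimate of -2.21 (95% interval -2.46 to -1.96, adjusted p = 4.8e-06). Dlst, the core subunit of the same complex, did not pass (0.03, 95% interval -0.17 to 0.23, adjusted p = 0.82).

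Succinyl-CoA synthetase, which makes GTP or ATP from succinyl-CoA, is built of the shared alpha subunit Suclg1 and either the GTP-specific beta subunit Suclg2 or the ATP-specific Sucla2. Suclg1 signals were 555.6, 592.6 and 565.7 in static and 307.9, 238.4 and 226.0 in sheared cells (change -1.11, 95% interval -1.38 to -0.85, adjusted p = 0.00013). Those of Suclg2 were 505.9, 568.7 and 557.0 against 307.9, 259.0 and 257.0 (-0.95, 95% interval -1.20 to -0.70, adjusted p = 0.00023). Both subunits thus fell without overlap of the groups, and in both the pair 1 change was the smallest. Sucla2 went the other way, from 459.6, 448.0 and 453.6 to 541.1, 556.4 and 586.8 (0.30, 95% interval 0.10 to 0.49, adjusted p = 0.018). That call was lost without pair 2 (adjusted p = 0.13) or pair 3 (adjusted p = 0.18). Calls shifted in the same way over the whole table. Of all probe sets tested, 52.8% were called with all pairs, 59.9% without pair 1, 40.5% without pair 2 and 38.6% without pair 3. Fits without a pair have 1 residual degree of freedom. Calls lost or gained in them, here and below, are therefore not particular to these genes.

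The NAD-dependent isocitrate dehydrogenase, the enzyme of the cycle proper, consists of catalytic Idh3a and the regulatory subunits Idh3b and Idh3g, and these also differed. Idh3g fell from 496.7, 536.0 and 554.8 to 255.4, 298.6 and 303.9 (-0.85, 95% interval -1.06 to -0.65, adjusted p = 0.00013). Idh3b rose by 0.30 (95% interval 0.10 to 0.50, adjusted p = 0.020), from 373 ± 12.2 to 462 ± 3.79 (SD, n = 3), a call lost without pair 2 (adjusted p = 0.12) or pair 3 (adjusted p = 0.13). Idh3a did not pass (-0.14, adjusted p = 0.37), but passed as fallen without pair 1 (-0.25, adjusted p = 0.033). Mdh2, the malate dehydrogenase of the cycle, fell slightly (-0.28, 95% interval -0.46 to -0.11, adjusted p = 0.013). Its call was lost without pair 2 (adjusted p = 0.11) or pair 3 (adjusted p = 0.086) and after median centring of the arrays (-0.13, adjusted p = 0.20).

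Citrate synthase Cs had 4 probe sets that differed. The brightest, at 903 ± 68.3 in static and 953 ± 36.3 in sheared cells (SD, n = 3), did not pass (0.08, adjusted p = 0.46), although without pair 1 it passed as risen (0.17, adjusted p = 0.025). The next in signal fell by 0.26 (adjusted p = 0.048), another did not pass (-0.10, adjusted p = 0.42), and the dimmest, with signals of 0.30 to 14.6, fell by 0.48 (adjusted p = 0.021). No direction is therefore given for Cs.

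The pyruvate dehydrogenase complex links glycolysis to the cycle. Pdha1, its catalytic alpha subunit, fell from 1162.2, 1338.7 and 1230.3 in static to 659.2, 697.2 and 659.3 in sheared cells (-0.87, 95% interval -1.04 to -0.70, adjusted p = 4.8e-05), and its other probe set fell as well (-1.04, adjusted p = 7.5e-05). Pdhb, the beta subunit that pairs with it, did not pass (-0.08, 95% interval -0.27 to 0.11, adjusted p = 0.45). Dld, the dihydrolipoyl dehydrogenase that this complex shares with the 2-oxoglutarate dehydrogenase, rose from 515.1, 575.7 and 582.8 to 849.4, 853.4 and 861.4 (0.60, 95% interval 0.42 to 0.79, adjusted p = 0.00047). The catalytic alpha subunit was thus lower and the shared subunit higher, with no overlap of groups in either gene. Pcx, pyruvate carboxylase, which makes oxaloacetate from pyruvate, had low signals of 25.7, 19.5 and 26.0 in static and 43.2, 34.5 and 32.3 in sheared cells. It rose by 0.41 (adjusted p = 0.029), but did not pass without pair 1 (adjusted p = 0.052), without pair 2 (adjusted p = 0.15) or with dim probe sets kept (adjusted p = 0.079).

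Cytosolic and amino acid partners fell or did not pass. Mdh1, the cytosolic malate dehydrogenase of the malate-aspartate shuttle, fell from 1040.6, 1220.0 and 1085.0 to 585.5, 607.9 and 533.6 (-0.93, 95% interval -1.12 to -0.75, adjusted p = 5.1e-05), and its dimmer probe set fell by 0.88. Idh1, the cytosolic NADP-dependent isocitrate dehydrogenase, fell from 949.5, 1272.1 and 1184.5 to 770.0, 765.3 and 720.1 (-0.57, 95% interval -0.81 to -0.34, adjusted p = 0.0019). Glud1, glutamate dehydrogenase, fell by 0.25 (adjusted p = 0.019) on its brighter probe set, a call lost after median centring (-0.10, adjusted p = 0.31) and without pair 2 (adjusted p = 0.12) or pair 3 (adjusted p = 0.19), and by 0.66 (adjusted p = 0.00045) on the other. The aspartate aminotransferases, which also serve the shuttle, did not pass: Got1 at -0.01 (adjusted p = 0.94) and Got2 at -0.08 (adjusted p = 0.37). A dim Got2 probe set, with signals of 6.00 to 20.9, rose by 0.42 (adjusted p = 0.026).

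Fatty acid activation and carnitine transfer held the largest increases. Cpt1a, the outer-membrane carnitine palmitoyltransferase whose step limits the rate of long-chain oxidation, rose from 159.9, 128.9 and 122.4 in static to 691.4, 737.9 and 716.1 in sheared cells. The groups were widely separated, at 137 ± 20.04 and 715 ± 23.3 (SD, n = 3), a 5.22-fold higher mean and a change of 2.26 (95% interval 2.01 to 2.52, adjusted p = 5.1e-06). Its other probe set rose by 1.86 (adjusted p = 1.2e-05), with 75.6, 71.7 and 72.4 against 271.9, 331.2 and 323.6. Cpt2, the inner-membrane partner that releases the acyl group in the matrix, was at 84.0, 70.3 and 72.0 in static and 92.8, 90.5 and 103.3 in sheared cells. Those values do not overlap, but the difference did not pass (0.29, 95% interval 0.02 to 0.56, adjusted p = 0.072). It passed without pair 1 (0.37, adjusted p = 0.0085), after quantile normalization (0.39, adjusted p = 0.025), after median centring (0.44, adjusted p = 0.018), with pairs fitted as a random effect (adjusted p = 0.046) and with gene means over probe sets tested in place of probe sets (adjusted p = 0.048).

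The 3 long-chain acyl-CoA synthetases on the list moved in different directions. Acsl1, the form linked to beta-oxidation and lipid storage in many tissues, rose from 174.3, 159.2 and 159.6 to 444.4, 812.7 and 870.5, a mean 4.31-fold higher. Sheared array 1 had the lowest of the 3 sheared values, so the pair differences were 1.27, 2.24 and 2.34 around an estimate of 1.95 (95% interval 1.498 to 2.40, adjusted p = 0.00012). Another Acsl1 probe set rose by 2.29 (adjusted p = 0.00012) with the same order of arrays. Acsl3, an acyl-CoA synthetase of the endoplasmic reticulum and lipid droplets, fell from 210.8, 220.2 and 228.5 to 54.7, 44.2 and 58.2 (-1.79, 95% interval -2.06 to -1.52, adjusted p = 1.4e-05). Acsl4, which prefers arachidonic acid, rose from 645.6, 541.8 and 574.4 to 952.8, 991.8 and 979.1 (0.72, 95% interval 0.52 to 0.92, adjusted p = 0.00030). None of these 3 had overlapping groups.

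Acyl-CoA dehydrogenases catalyse the first step of each beta-oxidation round and differ in the chain length they take. Acadl, for long chains, rose from 389.1, 323.0 and 336.5 to 1003.3, 914.5 and 998.5 (1.44, 95% interval 1.24 to 1.63, adjusted p = 9.7e-06). Acadvl, for very long chains, fell from 128.2, 132.3 and 131.3 to 60.5, 79.9 and 62.7 (-0.82, 95% interval -1.09 to -0.55, adjusted p = 0.00070). Acadm, for medium chains, fell from 236.4, 219.8 and 226.0 to 110.8, 102.5 and 105.7 (-0.99, 95% interval -1.23 to -0.76, adjusted p = 0.00012). Acads, for short chains, did not pass, with a difference of -0.11 (95% interval -0.38 to 0.16, adjusted p = 0.46) and overlapping groups. Acadl was thus the 1 of these 4 enzymes with higher signal under shear.

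Of the enzymes that complete the round, 5 of 6 fell and 0 rose. Eci1, the enoyl-CoA isomerase needed for unsaturated fatty acids, fell from 347.1, 424.7 and 382.3 to 132.1, 133.7 and 158.8 (-1.35, 95% interval -1.60 to -1.09, adjusted p = 4.4e-05). Hadh, the hydroxyacyl-CoA dehydrogenase of medium and short chains, fell from 170.8, 171.9 and 181.2 to 69.7, 76.1 and 59.9 (-1.18, 95% interval -1.45 to -0.90, adjusted p = 0.00012). Echs1, the short-chain hydratase, fell from 148.0, 132.0 and 178.8 to 101.4, 82.8 and 58.2. Its pair differences were uneven, -0.48, -0.58 and -1.39 (estimate -0.82, adjusted p = 0.0062), and pair 3 was the largest; without it the estimate was -0.53 (adjusted p = 0.033). Acaa2, the mitochondrial thiolase, fell by 0.47 (adjusted p = 0.0056) on its brighter probe set, while the other, with signals of 9.60 to 18.5, did not pass (0.19, adjusted p = 0.30); the mean over both did not pass (-0.14, adjusted p = 0.27).

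Hadha and Hadhb, the alpha and beta subunits of the mitochondrial trifunctional protein, start from the shared region printed above. Hadha was at 306.6, 307.8 and 345.2 in static and 288.8, 238.4 and 233.1 in sheared cells (-0.32, 95% interval -0.59 to -0.06, adjusted p = 0.045), and Hadhb at 891.8, 1124.2 and 1143.4 against 1385.0, 845.1 and 832.0. Hadhb was highest on sheared array 1 and lowest on sheared arrays 2 and 3, with pair differences of 0.63, -0.41 and -0.45, and it did not pass (-0.08, 95% interval -0.52 to 0.37, adjusted p = 0.76). Without pair 1 it passed as fallen (-0.43, adjusted p = 4.4e-06), beside -0.44 for Hadha. With 1 residual degree of freedom, that p rests largely on the variance that limma shares across probe sets, and pair 1 went the other way. The Hadha call was lost without pair 2 (adjusted p = 0.18) or pair 3 (adjusted p = 0.33), after median centring (-0.17, adjusted p = 0.22), without the filter (adjusted p = 0.066) or the intensity trend (adjusted p = 0.070). Its dim probe sets, with signals from 3.50 to 27.9, did not pass (0.46, adjusted p = 0.055, and -0.09, adjusted p = 0.65), and the mean over all 3 was 0.02 (adjusted p = 0.90).

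The electron transfer flavoprotein is a dimer of Etfa and Etfb, and Etfdh passes its electrons to ubiquinone. Etfb fell from 380.3, 415.3 and 394.1 to 274.0, 194.9 and 212.5 (-0.78, 95% interval -1.07 to -0.48, adjusted p = 0.0013). Etfa did not pass (0.07, 95% interval -0.17 to 0.31, adjusted p = 0.60). Etfdh fell from 101.8, 103.2 and 117.1 to 62.0, 78.5 and 95.1 (-0.40, adjusted p = 0.024), a call lost after quantile normalization (-0.30, adjusted p = 0.067), after median centring (-0.25, adjusted p = 0.14) and without pair 2 (adjusted p = 0.087) or pair 3 (adjusted p = 0.064).

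**Figure D2:**
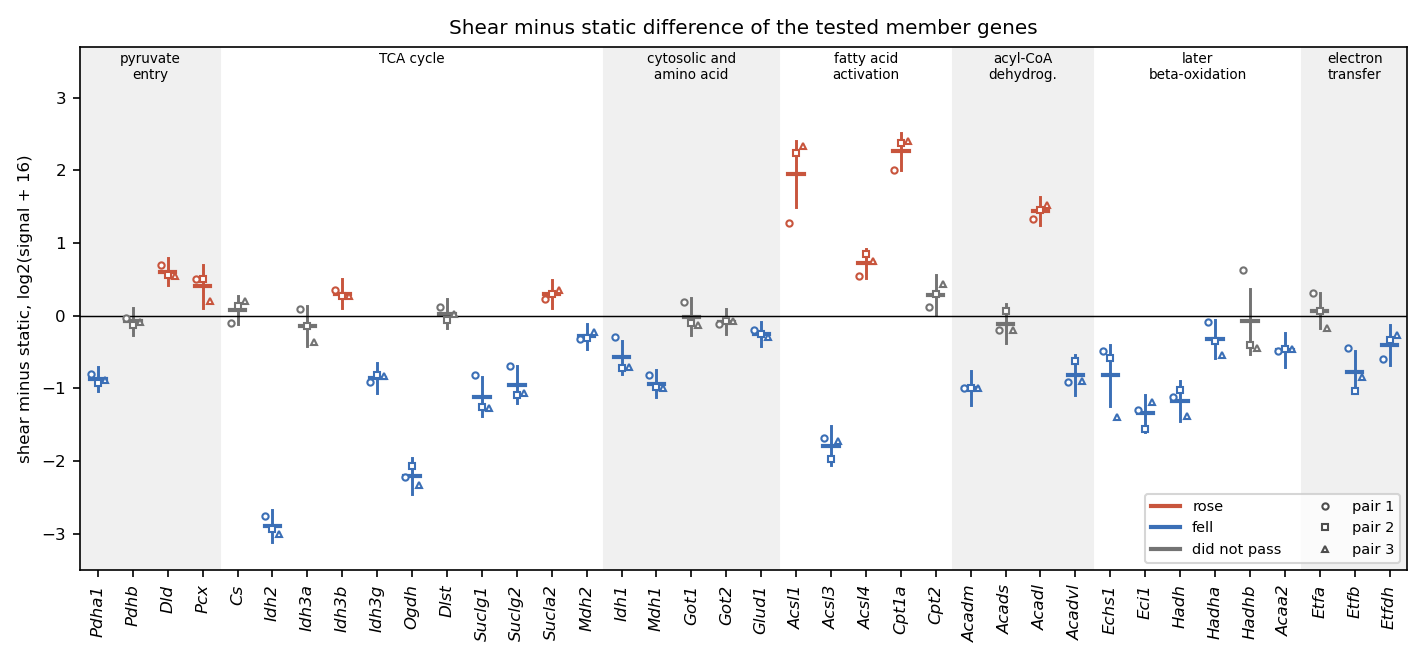
Shear minus static difference on the log2(signal + 16) scale for the 38 tested genes, by role; thick marks are limma estimates, vertical lines 95% intervals and open symbols the 3 pairs. Blue genes fell, red rose and grey did not pass; Idh2 (-2.90) and Cpt1a (2.26) mark the ends.

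Because several complexes held genes that moved apart, the change of 1 partner was set against that of another within each array. For 15 pairs of subunits, isoforms or consecutive enzymes, chosen with the results known, the log2 ratio was compared between the groups by a two-sided exact permutation test. That test treats the arrays as independent and leaves the pairing of cultures aside, and 0.1 is its smallest possible p with 3 against 3 arrays. In 13 of 15 the ratios of the sheared and static arrays did not overlap, each with exact p = 0.1 (0.115 after Benjamini-Hochberg adjustment over the 15). Since the pairs were chosen with the results known, neither this count nor these p-values are evidence of a difference. Of all single genes tested, 64.4% had groups without overlap, and ratios of other gene pairs were not examined. No ratio can pass 0.05, and the sizes below describe these 6 arrays. Among shifts toward the first-named partner, that of Acsl1 to Acsl3 was the largest, 3.74 ± 0.69 (SD over 3 pairs), followed by Acadl to Acadm (2.43 ± 0.098), Acadl to Acadvl (2.25 ± 0.17) and Cpt1a to Cpt2 (1.98 ± 0.095). The shift between Pdha1 and Pdhb was nearly the same in each pair (-0.78, -0.80 and -0.80), and so was that of Dld against Pdha1 (1.51, 1.48 and 1.44). Ogdh shifted against Dlst by -2.24 ± 0.20, Idh2 against Idh1 by -2.32 ± 0.13, Sucla2 against Suclg2 by 1.25 ± 0.29, and Idh3b against Idh3g by 1.15 ± 0.10. For Got2 to Got1 (-0.07 ± 0.20, exact p = 0.8) and Hadha to Hadhb (-0.25 ± 0.41, exact p = 0.3) the groups overlapped. Ratios within an array show unequal change and do not depend on how arrays are scaled to each other, apart from the added constant.

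**Figure D3:**
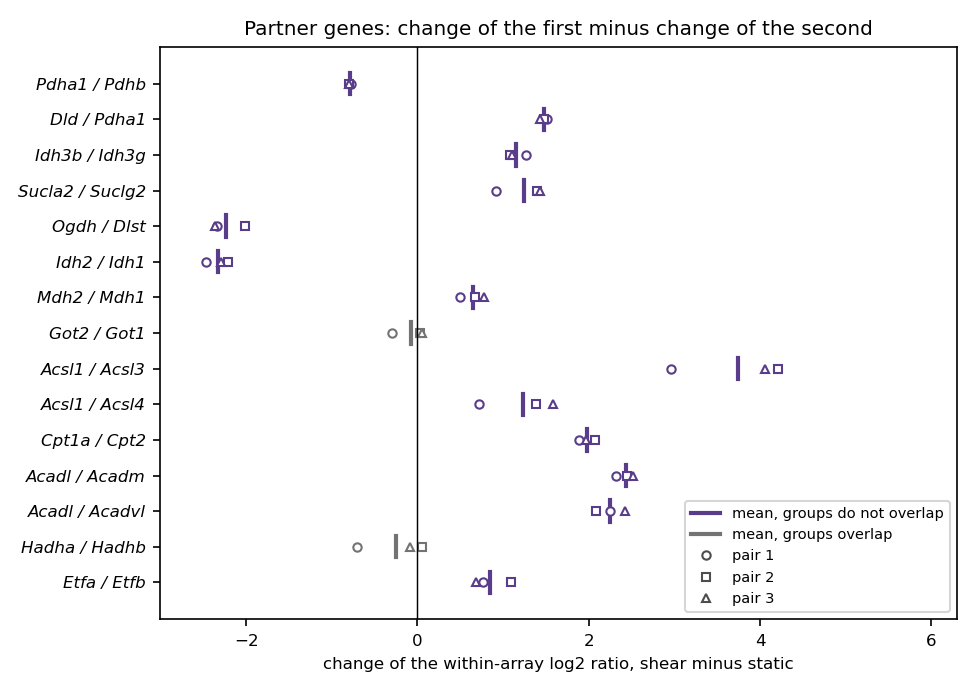
Change of the within-array log2 ratio of 15 partner pairs, sheared minus static; vertical bars are means and open symbols the 3 pairs. In grey are the 2 ratios whose groups overlap, Got2 to Got1 and Hadha to Hadhb; Acsl1 to Acsl3 lies farthest to the right at 3.74.

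Probe sets of the same gene were compared where there were several, as in 13 of the genes. Over all 56 probe sets 6 lay below the filter, 11 rose, 25 fell and 14 did not pass, beside 52.8% of all probe sets called. Both tested probe sets of Pdha1, Mdh1, Glud1, Acsl1 and Cpt1a were called in the same direction. Cs, Got2, Hadha and Acaa2 had probe sets with different calls, and no gene of the group had a probe set that rose beside one that fell.

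**Figure D4:**
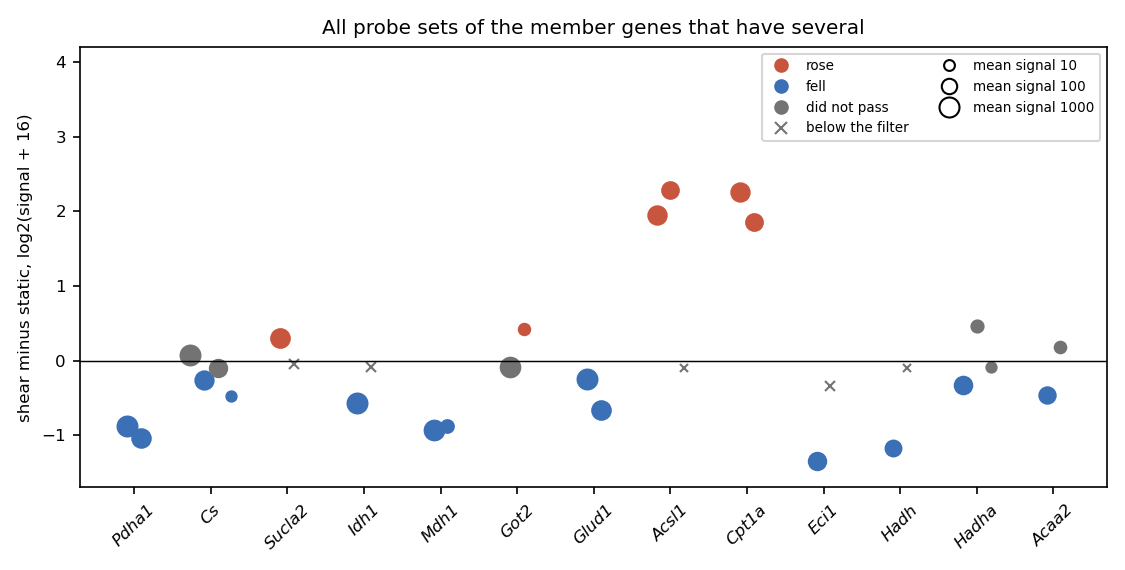
Mean shear minus static difference on the log2(signal + 16) scale of each probe set of the 13 genes with several, ordered by signal within a gene; point area grows with mean signal and crosses lie below the filter. The Cpt1a and Acsl1 probe sets called lie between 1.86 and 2.29, while those of Cs and Hadha spread around 0.

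Pair 1 had the smallest difference of the 3 pairs in 20 of 38 genes and the opposite sign to both other pairs in 4. Pair 2 had the opposite sign to the others in 2 genes and pair 3 in 1. Over all 11248 genes tested the median difference was -0.0030 in pair 1, -0.070 in pair 2 and -0.060 in pair 3. The same counts were not made over all genes, so they are not read as particular to this group. Without pair 1, 9 of the 38 genes rose and 22 fell, with 1 degree of freedom left for the error. In that fit 59.9% of all probe sets were called, against 52.8% with all pairs.

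Other genes of these pathways, from lists chosen with earlier results of these data known, gave 19 risen, 39 fallen and 34 not passing of 92 tested, so 63.0% were called, near the 57.9% of all genes tested. Of the TCA cycle, 6 of 8 fell and 0 rose, including Sdha (-0.68, adjusted p = 0.00092), Sdhb (-0.55, adjusted p = 0.0023) and Sdhd (-0.62, adjusted p = 0.00071) of succinate dehydrogenase and the cytosolic aconitase Aco1 (-1.21, adjusted p = 9.1e-05). Around pyruvate, 5 of 17 rose and 4 fell: the malic enzyme Me1 (1.14, adjusted p = 2.0e-05), the pyruvate dehydrogenase phosphatase Pdp1 (1.29, adjusted p = 3.2e-05) and the complex's binding subunit Pdhx (1.21, adjusted p = 0.00011) rose, and the lactate dehydrogenase Ldhb fell (-0.87, adjusted p = 0.00037). All 14 tested genes of glutamine, glutamate and shuttle metabolism were called, 4 risen and 10 fallen. Among them Nnt, the transhydrogenase that like Idh2 supplies mitochondrial NADPH, fell from 607.1, 614.9 and 633.3 to 161.4, 156.0 and 133.5 (-1.94, adjusted p = 6.8e-06), the 2-oxoglutarate carrier Slc25a11 (-1.06, adjusted p = 0.00015) and the proline pathway enzyme Aldh4a1 (-1.37, adjusted p = 0.00015) fell, and the aspartate-glutamate carrier Slc25a13 rose (0.87, adjusted p = 0.00020).

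Of the further fatty acid genes, 5 of 29 rose, 13 fell and 11 did not pass. Phyh, the peroxisomal enzyme that starts the breakdown of phytanic acid, fell from 435.9, 405.2 and 405.6 to 48.6, 32.8 and 34.5 (-2.99, adjusted p = 2.2e-06), and the peroxisomal Hsd17b4 by 1.13 (adjusted p = 0.00011). The acyl-CoA thioesterases Acot2 (2.17, adjusted p = 0.00012) and Acot7 (0.91, adjusted p = 3.8e-05) rose, and all 3 Acot2 probe sets did so. Acsl5, a further acyl-CoA synthetase named after its values were seen, is counted as fallen by its brightest probe set (-0.40, adjusted p = 0.0075), while its other one rose (0.48, adjusted p = 0.017). Ketone body genes fell in 3 of 4 cases: Oxct1, which activates ketone bodies for use (-2.40, adjusted p = 1.1e-05), the mitochondrial thiolase Acat1 (-1.29, adjusted p = 3.0e-05) and the cytosolic thiolase Acat2 (-1.75, adjusted p = 0.00044).

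Regulators of mitochondrial oxidation did not pass in 10 of 16 cases, with 4 risen and 2 fallen. Esrra, a nuclear receptor that drives oxidative genes, rose from 43.6, 41.7 and 45.6 to 111.7, 107.2 and 131.0 (1.15, adjusted p = 0.00010). The mitochondrial transcription factor Tfam (0.78, adjusted p = 0.00032) and the kinase subunit Prkaa2 (0.80, adjusted p = 0.0054) rose too, the latter from signals of 1.20 to 12.6, and the mitochondrial deacetylase Sirt3 fell (-0.67, adjusted p = 0.0039). Prkaa1, the other catalytic subunit of AMP-activated kinase, named after its values were seen, is counted as fallen by its brightest probe set (-0.33, adjusted p = 0.030), but another of its 3 probe sets rose, from 53.4, 46.7 and 49.3 to 236.5, 324.8 and 287.1 (2.17, adjusted p = 1.2e-05), so no direction is given for it. Among PPAR target genes 3 of 10 rose and 3 fell, and the list shares Cpt1a, Acsl1, Acadvl and Hadha with the genes above. Plin2, a lipid droplet coat protein, rose from 268.9, 291.2 and 319.0 to 1451.2, 1865.5 and 1868.1 (2.49, adjusted p = 1.5e-06), whereas Pdk4 (-0.12, adjusted p = 0.45) and Angptl4 (0.32, adjusted p = 0.12) did not pass.

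**Figure D5:**
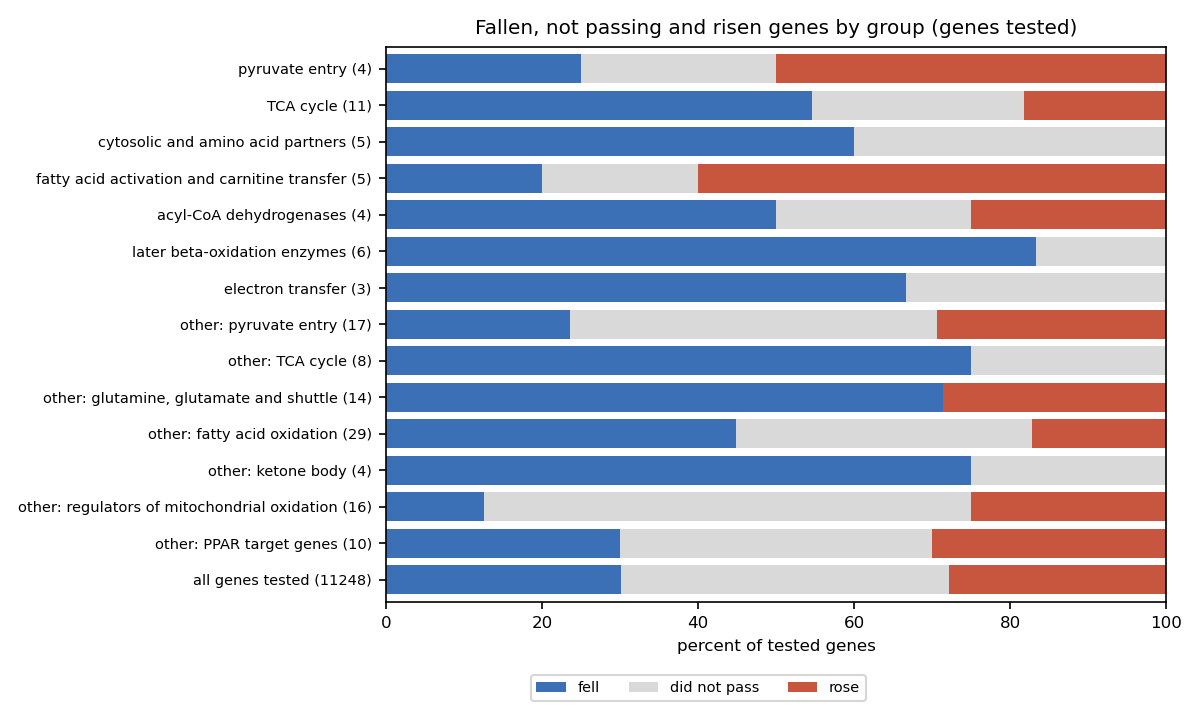
Percent of tested genes that fell (blue), did not pass (grey) and rose (red) in each role group of the members, in each list of other pathway genes and over all 11248 genes tested; the number tested is in parentheses. Later beta-oxidation enzymes and TCA cycle genes lie mostly in blue, and fatty acid activation and carnitine transfer holds 3 risen genes of 5; several bars rest on fewer than 10 genes.

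The labelled cell type was set against marker genes, which also moved with the groups. Of the markers tested, 66.7% of smooth muscle, 75.0% of fibroblast, 50.0% of leukocyte and 40.0% of endothelial ones were called. Over all genes tested 57.9% were called (27.8% rose and 30.1% fell), so a call is not particular to markers. Differences between these shares were not tested. All 12 smooth muscle markers passed the filter, with 8 fallen and 0 risen, and 1 of them, Des, had mean signals under 20 in both groups. Their summed signal was 8843 to 9780 on static and 5836 to 5995 on sheared arrays. Mylk had the largest fall on the log2 scale, from a mean of 593 to 70.3 (-2.82), followed by Lmod1, from 72.4 to 6.10 (-2.01). Acta2, smooth muscle actin, fell from 1811 ± 157 to 836 ± 89.1 (SD, n = 3). Of the 12, 4 did not pass, among them Tagln, at 2684 ± 284 and 2815 ± 93.3 (0.07). Of 8 fibroblast markers 2 rose and 4 fell, with summed signals of 6471 to 8815 and 5396 to 8146. Pdgfra fell from a mean of 490 to 92.6, and Dcn rose from 1768 to 2350. Endothelial markers (11 of 12 matched, 5 tested, 1 risen, 1 fallen) summed to 230 to 257 and 215 to 232. Of them 7, Pecam1 and Vwf included, had mean signals under 20 in both groups. The brightest, Egfl7, fell from 111 to 79.4, Flt1 rose from 27.8 to 53.6, and Erg, at 44.1 and 40.6, did not pass. Leukocyte markers (10 matched, 6 tested, 2 risen, 1 fallen) summed to 214 to 267 and 167 to 207, with 8 under 20, Ptprc among them. The brightest, Cd14, fell from 182 to 108, and Cd68 (10.1 to 25.8) and Coro1a (4.83 to 12.2) rose. All 8 cardiac and skeletal muscle markers were under 20, with sums of 26.9 to 46.3 and 40.3 to 63.6, and the 1 tested rose. The median signal of all probe sets was 21.1 to 22.6 on static and 17.3 to 18.9 on sheared arrays. The 3' minus 5' log2 signal of the Gapdh control probe sets, a sign of RNA quality, was 0.17 ± 0.0097 in static and 0.16 ± 0.0062 in sheared cells (exact permutation p = 0.3, two-sided), and that of beta-actin 0.26 ± 0.036 and 0.39 ± 0.028 (exact p = 0.1, the smallest possible; SD, n = 3). The part of these differences in the results above was not tested. Both permutation tests of the control probe sets left the pairing aside.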

How the data were processed

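Gene expression was measured on 6 Affymetrix rat arrays, 3 static and 3 sheared, grouped by the labels. The deposited values are linear intensities made by the authors with MAS5, per the submitters' processing notes; which MAS5 release is not stated in the labels used here. The 2% trimmed mean was 100.04 on each array. No probe-level depth applies: the number of arrays limits the precision.

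Values were transformed as log2(intensity + 16), the dimmest 30% of probe sets by mean (at or below 4.50) were left out, and the remaining 21729 were tested in limma 3.58.1 (R 4.3.3; lmFit, eBayes with intensity trend) with the pair as a block, which leaves 2 residual degrees of freedom, and Benjamini-Hochberg adjustment. The block follows the pairing in the labels. As a check, each array's deviations from its group mean were correlated with those of the other group's arrays: same-numbered arrays gave 0.071, 0.065 and 0.063, above every differently numbered combination (-0.071 to 0.018). Genes are named by the platform table (20826 probe sets with 1 symbol, 436 with several, 9780 with none), and the probe set with the highest mean log2 signal stands for a gene. All members are reported. Of each list of other genes, up to 4 with the smallest p are named, plus Pdk4 and Angptl4. Acsl5 and Prkaa1 were named outside this rule, after their values were seen. Members, lists and partner pairs were chosen with earlier results of these data known. Scripts were tested on simulated data. Ratios and control probe sets were tested by exact permutation with arrays taken as independent, not paired (scipy 1.17.1). Alternatives were quantile normalization, median centring, other filters, other constants, other treatments of the pair, no trend, robust estimation, leaving out each pair, and the mean over probe sets. No genome build is named for the arrays, so no coordinates are given except those of RefSeq promoters.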

Additional observations from a re-analysis of the deposited data

How the results depend on the processing

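Under all alternatives tried, 15 of the 20 fallen and 5 of the 8 risen genes kept their call (Acadl, Acsl1, Acsl4, Cpt1a and Dld rose). Leaving out 1 pair gave 5 to 9 risen and 16 to 22 fallen genes, with 5 risen and 16 fallen without pair 2. These fits have 1 residual degree of freedom. Calls over all probe sets moved likewise, from 52.8% with all pairs to 59.9%, 40.5% and 38.6% without pairs 1, 2 and 3. Without the replicate block the counts were 8 risen and 20 fallen, as with it. The median over all probe sets was -0.067 as deposited, 0.021 after quantile normalization and 0.082 after median centring, so small decreases depend on the scaling, and median centring left 9 risen and 16 fallen. Directions reversed after quantile normalization for Dlst (-0.026) and Etfa (-0.0059), and after median centring for Pdhb (0.070), Idh3a (0.013), Got1 (0.14), Got2 (0.066), Acads (0.040) and Hadhb (0.072). When 1 pair was left out, the values ran from -0.020 (without pair 1) to 0.071 for Dlst, from -0.052 (without pair 1) to 0.19 for Etfa, from -0.11 to 0.046 for Got1 (0.031 without pair 2, 0.046 without pair 3) and from -0.43 to 0.11 for Hadhb (0.087 without pair 2, 0.11 without pair 3). They reversed as means over probe sets for Cs (-0.19), Got2 (0.17) and Hadha (0.016). Of these genes Hadha alone was called in the fit reported, and the cause was not tested. Signals near background, as for Pcx and Ppara, limit what these arrays can show.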
